A study of Mus musculus with 42 samples.

Results

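The genes described here are 9 core genes of the Sonic hedgehog pathway, listed by name with no threshold on a measured value: Shh, Ptch1, Smo, Gli1, Gli2, Gli3, Hhip, Boc and Cdon. They are 9 of the 52636 genes in the culture count files, and all 9 passed the filter on low counts, which left 17173 genes to test. SHH is a secreted ligand. It binds the receptor PTCH1 with the help of the coreceptors BOC and CDON, and binding relieves the block that PTCH1 places on SMO at the primary cilium. SMO then lets the GLI factors switch target genes on, among them Gli1, Ptch1 and Hhip, and both PTCH1 and HHIP restrain the ligand. In the developing neural tube the pathway patterns ventral fates and keeps progenitors dividing, the same signal is known to lower Boc, Cdon and Gas1 there, and trisomic progenitors have been described as responding weakly to it.

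The series compared 3 mouse genotypes held on one mixed background (DBA/2J and B6EiC3Sn/J): euploid animals, Ts65Dn animals that carry a segmental trisomy of genes shared with human chromosome 21, and Ts65Dn animals with 1 mutant copy of the chromatin gene Brwd1 (the repro5 allele), named Ts65Dn;Brwd1+/- and labelled Brwd1 Rescue. RNA was sequenced from primary forebrain neuronal cultures set up at embryonic day 16, 3 libraries per genotype, with male and female material pooled according to the labels and AraC added to the medium against dividing glia. Chromatin bound by the BAF complex ATPases SMARCA2 and SMARCA4 was sequenced from the hippocampus of male mice aged 6 to 8 weeks, 4 immunoprecipitations per genotype, each from a pair of pooled animals. Open chromatin was sequenced by ATAC-seq from sorted NeuN+ nuclei of adult male hippocampus, 3 samples per genotype. Neither chromatin assay was made on the cultures.

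Each culture library held between 17270070 and 25892802 counts assigned to genes. Within Ts65Dn, log2 levels of replicate 3 correlated at r = 0.983 and 0.986 with replicates 1 and 2, which correlated at 0.994 with each other. Brwd1 was measured at 93.2, 85.9 and 89.2 CPM (counts scaled to the library total) in the euploid libraries, at 129, 126 and 125 CPM in Ts65Dn and at 145, 146 and 124 CPM in the libraries labelled Brwd1 Rescue. Its level in the rescue-labelled libraries was thus not below that in Ts65Dn (log2 fold change 0.13 ± 0.08 SE, adjusted p = 0.186), although the label gives 1 mutant copy. Xist lay between 1409 and 1982 CPM in the rescue-labelled libraries and between 0.526 and 1.12 CPM in the other genotypes, while 4 Y-linked genes summed to at most 0.149 CPM in the former and at least 194 CPM in the latter. Sex and genotype therefore cannot be told apart in any comparison with the libraries labelled Brwd1 Rescue. Summed markers also moved with genotype. Of all tested genes, 46.7% passed the test in Ts65Dn against euploid and 58.1% in the rescue-labelled libraries against Ts65Dn. In the rescue-labelled libraries against euploid 29.2% did. The marker counts that follow stand beside these shares. GABAergic interneuron genes summed to 604 to 664 CPM in euploid, 142 to 240 CPM in Ts65Dn and 1079 to 1210 CPM in the rescue-labelled libraries, and 12 of 12 passed the test in each of the contrasts with Ts65Dn. Diencephalon and midbrain genes, of which 11 of 12 were tested and 9 were higher and 1 lower in Ts65Dn against euploid, summed to 348 to 470 CPM in Ts65Dn and to at most 71.0 CPM elsewhere. Meningeal and fibroblast genes, 11 of 12 tested with 8 higher and 3 lower in Ts65Dn against euploid, reached in sum 948 to 1512 CPM in Ts65Dn against at most 495 CPM elsewhere. Radial glia genes, of which 7 were higher and 4 lower in Ts65Dn against euploid, summed to 6829 to 7604 CPM in euploid, 9522 to 11864 CPM in Ts65Dn and 5822 to 6528 CPM in the rescue-labelled libraries. Glutamatergic neuron genes, 9 of 12 lower and 0 higher in Ts65Dn against euploid, summed to 1142 to 1469 CPM in euploid, 353 to 788 CPM in Ts65Dn and 1143 to 1529 CPM in the rescue-labelled libraries. Endothelial and pericyte genes summed to 90.04 to 98.1, 663 to 867 and 95.4 to 136 CPM in the same order. Of these 12 genes 6 were tested, and 2 were higher and 0 lower in Ts65Dn against euploid. The remaining 4 did not pass the test. The middle of the 6 log2 values lay at -0.19, unlike the sum, and the highest was 3.18. Oligodendrocyte lineage genes, 8 higher and 2 lower of 11 tested in the rescue-labelled libraries against Ts65Dn, summed to 363 to 416, 613 to 715 and 961 to 1162 CPM. Floor plate and dopaminergic genes, 7 higher and 3 lower of 10 tested in Ts65Dn against euploid, summed to 320.1 to 351, 514 to 630 and 495 to 521 CPM. Microglial genes, 7 lower and 0 higher of 8 tested in each contrast with the rescue-labelled libraries, summed to 27.2 to 38.8, 44.3 to 54.6 and 18.4 to 25.2 CPM. In Ts65Dn against euploid 1 of the 8 was higher and 2 were lower, with a median log2 fold change of -0.49, unlike the sum. Astrocyte markers were abundant in all 9 libraries, at 4006 to 5453 CPM in sum. Of 11 astrocyte markers tested, 6 were higher and 2 lower in Ts65Dn against euploid. In the rescue-labelled libraries against Ts65Dn 3 were higher and 6 lower. Of the markers in these lists Cldn5, which marks endothelium, was at 0 in every library, the microglial gene Trem2 was at 0 in the rescue-labelled libraries, and no other was at 0 in a whole genotype. In such bulk samples, fewer cells of a type and less RNA per cell cannot be told apart, and the part of these shifts in the hedgehog values below was not tested.

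In Ts65Dn cultures, 7 of the 9 hedgehog genes differed from euploid. Smo, Gli2, Boc and Cdon were higher and Shh, Ptch1 and Hhip were lower, while Gli1 and Gli3 did not pass the test. The share of all tested genes called in this contrast was 46.7%, with 25.6% higher and 21.1% lower, so a call by itself was common. In the libraries labelled Brwd1 Rescue, 6 of the 9 differed from Ts65Dn (58.1% of all tested genes were called, 27.6% higher and 30.5% lower). Ptch1 and Hhip were higher there and Smo, Gli3, Boc and Cdon were lower. Against euploid, the rescue-labelled libraries differed at 3 of the 9 genes (29.2% of all tested genes), with Cdon higher and Boc and Gli3 lower. The median log2 fold change over the 9 genes was 0.20, -0.35 and 0.00 in these 3 contrasts, and 0.04, 0.00 and -0.02 over all tested genes. All contrasts come from a single edgeR fit to the 9 libraries, with p-values adjusted over all 17173 genes and a threshold of 0.05. Both contrasts with Ts65Dn share the Ts65Dn libraries, so opposite signs in them are not separate evidence.

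**Figure D1:**
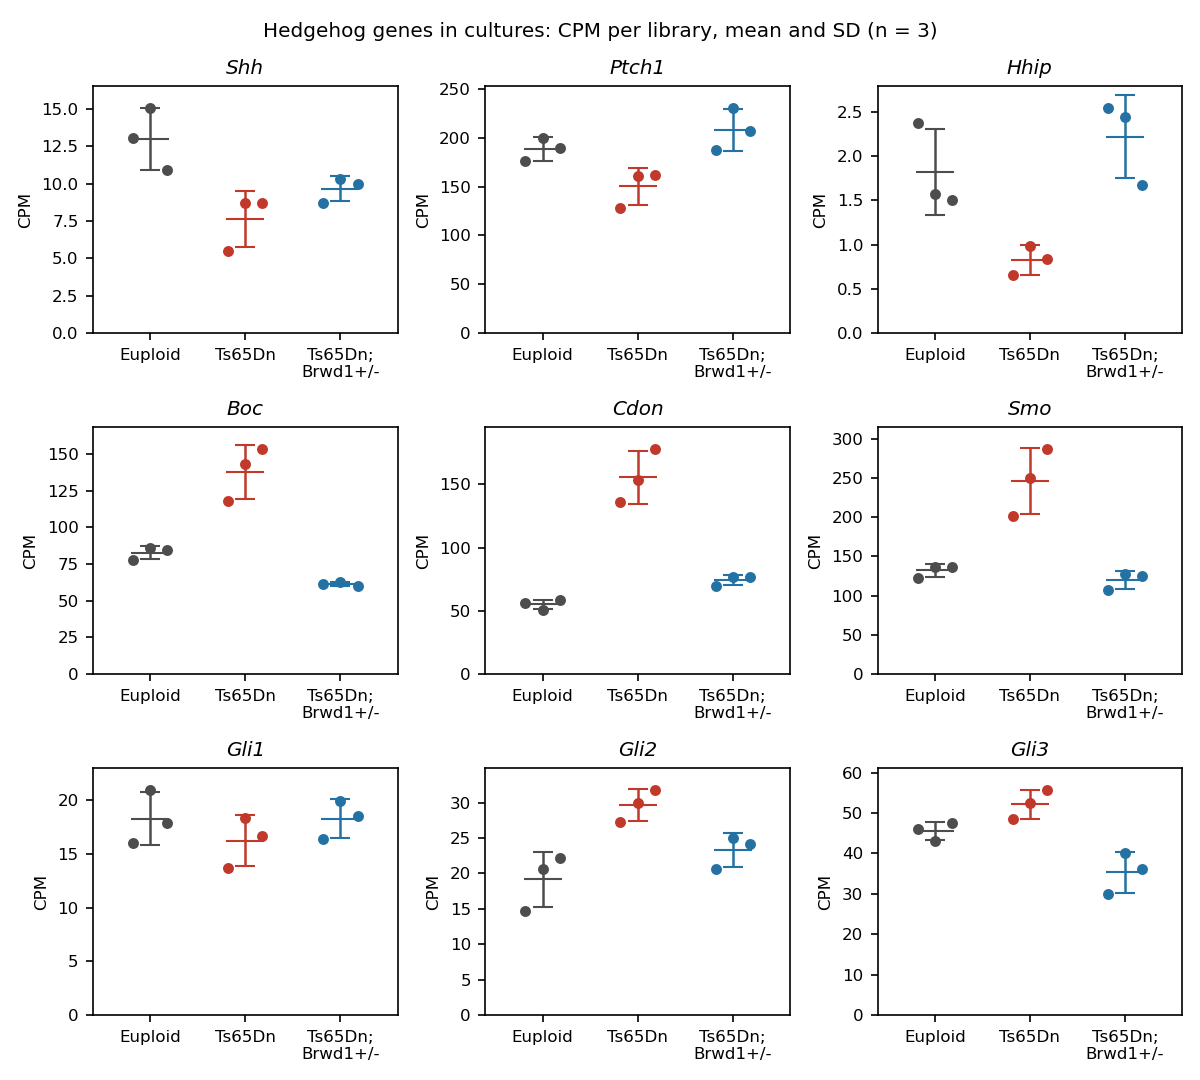
CPM of each hedgehog gene (vertical axis, from 0) in every culture library, grouped by genotype. Points are libraries, and bars give the mean and SD of 3 libraries. The 3 Ts65Dn libraries lie above all others for Smo, Gli2, Gli3, Boc and Cdon and below all others for Ptch1 and Hhip.

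The ligand gene Shh (chr5:28456815-28467256, minus strand, GRCm38) was measured at 13.1, 15.0 and 10.9 CPM in the euploid libraries, at 5.47, 8.74 and 8.74 CPM in Ts65Dn and at 8.74, 10.3 and 9.97 CPM in the libraries labelled Brwd1 Rescue. The euploid libraries lay above all others, and the other genotypes met at 8.74 CPM. Shh was lower in Ts65Dn than in euploid, with a log2 fold change of -0.77 ± 0.18 (SE) and an adjusted p of 0.00678. The contrast of the rescue-labelled libraries with Ts65Dn gave 0.34 (95% interval -0.07 to 0.76, adjusted p = 0.14) and that with euploid gave -0.43 (-0.83 to -0.03, adjusted p = 0.102). Without Ts65Dn replicate 1 the former fell to 0.14 (adjusted p = 0.437), and the latter passed the threshold, at an adjusted p of 0.0311.

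Ptch1 (chr13:63508328-63573598, minus strand), which encodes the receptor and is itself a GLI target, was measured at 176, 200.3 and 189 CPM in euploid, at 128, 161 and 162 CPM in Ts65Dn and at 188, 230.3 and 207 CPM in the rescue-labelled libraries. Each Ts65Dn library was below each of the other 6. The log2 fold change was -0.33 ± 0.11 (adjusted p = 0.0347) in Ts65Dn against euploid and 0.47 ± 0.11 (adjusted p = 0.00473) in the rescue-labelled libraries against Ts65Dn. The first of these calls was lost without euploid replicate 2 (-0.28, adjusted p = 0.105), without Ts65Dn replicate 1 (-0.22, adjusted p = 0.107) and with upper-quartile scaling. Rescue-labelled and euploid libraries overlapped (0.14, 95% interval -0.10 to 0.39, adjusted p = 0.38).

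Hhip (chr8:79965851-80058006, minus strand) encodes a membrane protein that binds and sequesters the ligand, and it is also a GLI target. It had the fewest counts of the set, with a mean of 35.4 per library. Euploid libraries gave 2.38, 1.58 and 1.50 CPM, Ts65Dn libraries 0.653, 0.988 and 0.839 CPM, and rescue-labelled libraries 2.54, 2.45 and 1.68 CPM. Ts65Dn again lay below all 6 other libraries. The log2 fold change was -1.14 ± 0.28 (adjusted p = 0.00779) against euploid and 1.42 ± 0.27 (adjusted p = 0.00134) in the rescue-labelled libraries against Ts65Dn. Against euploid the rescue-labelled libraries gave 0.28 (-0.26 to 0.81, adjusted p = 0.43).

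The coreceptor genes were higher in Ts65Dn. Boc lies on chromosome 16 (chr16:44485049-44558897, minus strand), proximal to the segment that Ts65Dn mice carry in excess. It was measured at 77.6, 85.8 and 84.5 CPM in euploid, 118, 143 and 153 CPM in Ts65Dn and 61.1, 62.7 and 60.2 CPM in the rescue-labelled libraries. The 3 genotypes did not overlap. Boc was higher in Ts65Dn by 0.74 ± 0.10 on the log2 scale (adjusted p = 0.00029), and in the rescue-labelled libraries it was lower than in Ts65Dn (-1.17 ± 0.10, adjusted p = 7.14e-06) and lower than in euploid (-0.43 ± 0.10, adjusted p = 0.00769).

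Cdon (chr9:35421128-35507652, plus strand) showed the largest difference of the 9 between Ts65Dn and euploid. It was measured at 55.9, 50.8 and 58.4 CPM in euploid, 136, 153 and 178 CPM in Ts65Dn and 69.7, 76.9 and 76.7 CPM in the rescue-labelled libraries. The genotypes did not overlap here either, but the order differed from that of Boc, with the rescue-labelled libraries between the others. The log2 fold change was 1.50 ± 0.10 (2.83-fold, adjusted p = 5.87e-06) in Ts65Dn against euploid and -1.07 ± 0.10 (adjusted p = 1.71e-05) in the rescue-labelled libraries against Ts65Dn. Against euploid the latter remained higher, by 0.44 ± 0.10 (adjusted p = 0.00991), and this call was lost without rescue-labelled replicate 3 (0.38, adjusted p = 0.0506).

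Smo (chr6:29735503-29761365, plus strand) encodes the membrane protein that carries the signal inward. Its level was 123, 137 and 137 CPM in euploid, 202, 251 and 287 CPM in Ts65Dn and 107, 128 and 125 CPM in the rescue-labelled libraries. Ts65Dn lay above all other libraries, and the other genotypes overlapped. Smo was 1.86-fold higher in Ts65Dn than in euploid (log2 fold change 0.90 ± 0.13, adjusted p = 0.000472) and lower in the rescue-labelled libraries than in Ts65Dn (-1.04 ± 0.13, adjusted p = 8.08e-05). The difference between rescue-labelled and euploid libraries was -0.14 (-0.42 to 0.14, adjusted p = 0.454).

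Among the transcription factor genes, Gli1 (chr10:127329882-127341974, minus strand) is the target most often read as a measure of pathway output. It was measured at 16.02, 20.9 and 17.9 CPM in euploid, 13.7, 18.4 and 16.7 CPM in Ts65Dn and 16.4, 20.0 and 18.5 CPM in the rescue-labelled libraries, and all 3 genotypes overlapped. Its log2 fold change was -0.17 (-0.47 to 0.13, adjusted p = 0.318) in Ts65Dn against euploid and 0.17 (-0.13 to 0.47, adjusted p = 0.301) in the rescue-labelled libraries against Ts65Dn. No alternative setting called Gli1 in any contrast.

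Gli2 (chr1:118834132-119053619, minus strand), which encodes the main activator, was measured at 14.8, 20.6 and 22.2 CPM in euploid, 27.2, 29.9 and 31.7 CPM in Ts65Dn and 20.6, 25.1 and 24.2 CPM in the rescue-labelled libraries. Ts65Dn lay above all others. Gli2 was higher in Ts65Dn than in euploid (log2 fold change 0.63 ± 0.14, adjusted p = 0.00563). The rescue-labelled libraries gave -0.35 against Ts65Dn (-0.66 to -0.03, adjusted p = 0.0568), a value that passed the threshold without euploid replicate 1 (adjusted p = 0.0132).

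Gli3 (chr13:15463235-15730026, plus strand) encodes the factor that acts mainly as a repressor when no ligand is present. It was measured at 46.0, 43.0 and 47.4 CPM in euploid, 48.5, 52.6 and 55.6 CPM in Ts65Dn and 30.0, 40.1 and 36.1 CPM in the rescue-labelled libraries. The 3 genotypes did not overlap, although the Ts65Dn difference from euploid did not pass the test (0.20 ± 0.10, adjusted p = 0.146). Gli3 was lower in the rescue-labelled libraries than in Ts65Dn (-0.56 ± 0.11, adjusted p = 0.0012) and than in euploid (-0.36 ± 0.11, adjusted p = 0.0263). The call against euploid was lost without euploid replicate 1 (adjusted p = 0.0681), without euploid replicate 3 (0.0583) and without rescue-labelled replicate 1 (0.0516).

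**Figure D2:**
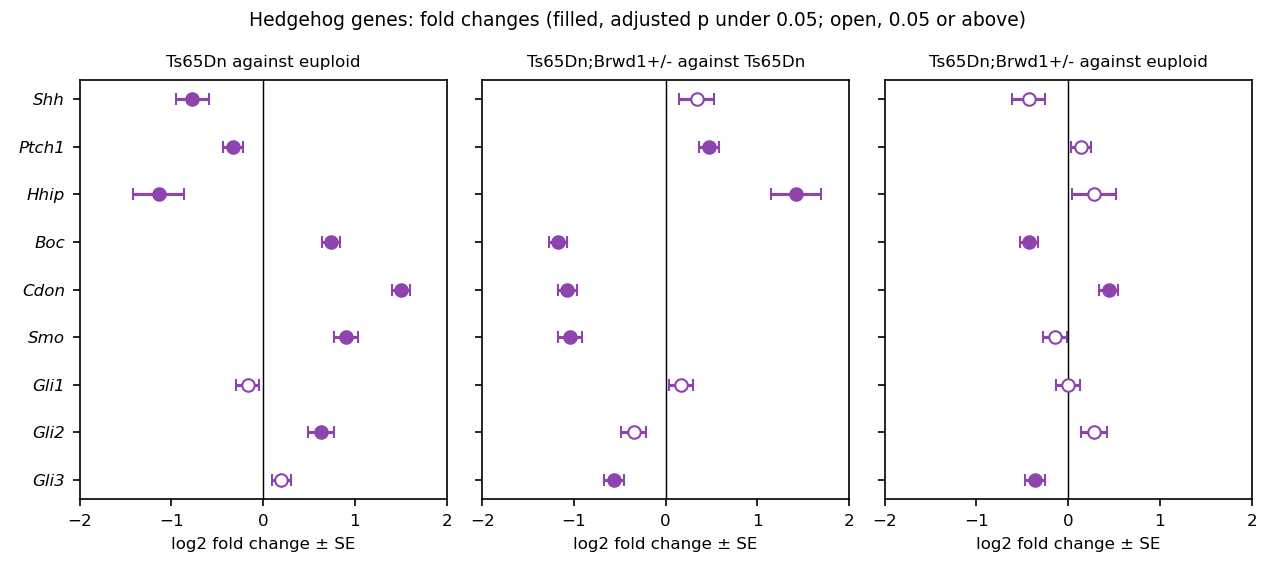
Log2 fold change of the 9 hedgehog genes (horizontal axis) in each of the 3 contrasts, with bars of 1 SE from the edgeR fit. Filled points passed an adjusted p of 0.05. Smo, Boc and Cdon lie right of 0 in Ts65Dn against euploid and left of 0 in the rescue-labelled libraries against Ts65Dn, while Ptch1 and Hhip show the reverse.

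Levels were compared between genes only after division by exon length, as CPM per kb. In euploid cultures Smo was highest at 23.5 ± 1.46 CPM per kb (SD, n = 3), followed by Boc (18.6 ± 0.99), Ptch1 (13.3 ± 0.85) and Cdon (7.13 ± 0.50). Gli3 (4.74 ± 0.235) and Shh (4.57 ± 0.724) lay within their spread of each other, as did Shh and Gli1 (3.66 ± 0.495) and Gli1 and Gli2 (2.79 ± 0.569). Hhip was lowest at 0.201 ± 0.0535 CPM per kb. In Ts65Dn cultures Cdon stood above Ptch1, at 20.2 ± 2.70 against 10.6 ± 1.35 CPM per kb, and Shh (2.69 ± 0.663) was below Gli1 (3.26 ± 0.472), a gap within the spread. In the rescue-labelled libraries Ptch1 (14.7 ± 1.51) and Boc (13.8 ± 0.286) were within the spread of each other, and so were Gli3, Gli1, Shh and Gli2, between 3.39 and 3.69 CPM per kb. Annotated genes that overlap the 9 had at most 57 counts in any library.

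**Figure D3:**
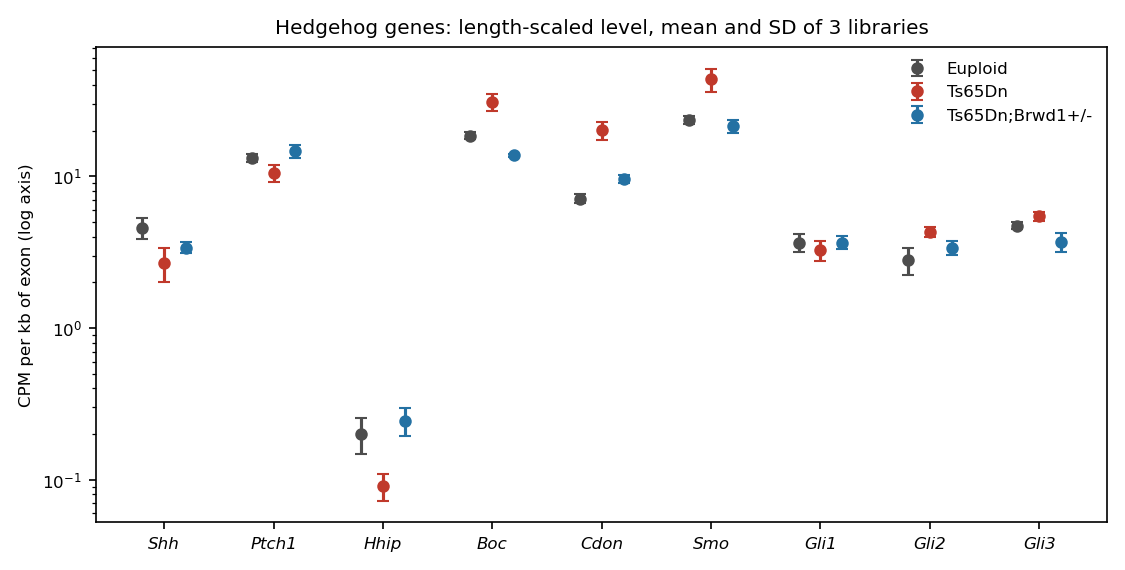
Exon-length-scaled level (CPM per kb, logarithmic vertical axis) of each hedgehog gene by genotype, as the mean and SD of 3 libraries. Cdon and Ptch1 exchange places between euploid (7.13 and 13.3) and Ts65Dn (20.2 and 10.6).

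Across the 9 libraries, which share the 3 genotypes and so rise and fall mostly by genotype, log2 CPM of Smo and Boc correlated at r = 0.96, of Smo and Cdon at 0.90 and of Smo and Hhip at -0.87. Ptch1 followed Gli1 (0.82), Hhip (0.80) and Shh (0.70). The tested genes closest in pattern to each member were Zfp248, Gm7160 and 1700001L05Rik for Shh (r = 0.965 to 0.926), Pgam2, Sdk2 and Entpd2 for Ptch1 (0.975 to 0.951), and Mfap3, Nt5c3 and Rngtt for Hhip (0.978 to 0.967). Those for Boc were Itga3, Amacr and Cubn (0.996 to 0.995), for Cdon Meis1, Tmem117 and Plcb4 (0.994 to 0.993) and for Smo Nek9, Fez2 and Slc4a2 (0.998 to 0.996). For Gli2 they were Maml1, Gm10080 and Rgl3 (0.993 to 0.983), for Gli3 Asah2, Gca and Zfp185 (0.994 to 0.993), and for Gli1 Gm9923, Gm8797 and Sirt7 (0.903 to 0.888). These values describe 9 points each and carry no test.

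The rest of the pathway was read from role lists of 95 further genes, of which 90 were tested. In Ts65Dn against euploid 44 were higher and 20 lower (71.1% called, beside 46.7% of all genes), in the rescue-labelled libraries against Ts65Dn 25 were higher and 45 lower (77.8% beside 58.1%), and in the rescue-labelled libraries against euploid 19 were higher and 26 lower (50.0% beside 29.2%). The ligand genes Ihh and Dhh were too low to test, at no more than 0.574 CPM in any library. All 6 tested genes of ligand processing and release differed in both contrasts with Ts65Dn, and the median log2 fold changes were 1.15 and -0.93. Scube2 and Scube3 encode secreted proteins that help free the lipid-bearing ligand. Scube2 was higher in Ts65Dn than in euploid (2.58 ± 0.23 on the log2 scale, adjusted p = 3.34e-05), and lower in the rescue-labelled libraries than in Ts65Dn (-1.96 ± 0.22). Scube3 gave 1.79 ± 0.14 and -1.97 ± 0.14 in the same contrasts. Disp2 (-1.70 ± 0.32 and 1.06 ± 0.31) went the other way, and Scube1 was higher by 1.46 ± 0.31 in the rescue-labelled libraries. Between the rescue-labelled and euploid libraries edgeR called 0 of the 6, DESeq2 also called 0, and 1 had an unadjusted p under 0.05.

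Among 5 other receptors and coreceptors, 4 were called in Ts65Dn against euploid and 5 in the rescue-labelled libraries against Ts65Dn, with medians of -0.69 and 0.95 (46.7% and 58.1% of all tested genes were called). Lrp2, which encodes the endocytic receptor megalin, was measured at 154, 152 and 152 CPM in euploid, 619, 895 and 942 CPM in Ts65Dn and 96.4, 133 and 108 CPM in the rescue-labelled libraries. Its log2 fold changes were 2.42 ± 0.17 and -2.86 ± 0.17 (adjusted p = 5.85e-06 and 1.23e-06). Gas1, a coreceptor gene that acts beside Boc and Cdon, was higher in Ts65Dn (0.48 ± 0.09) and lower in the rescue-labelled libraries than in Ts65Dn (-1.35 ± 0.09). Gpc3, a glypican gene, was lower in Ts65Dn (-1.16 ± 0.22).

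Of 21 intracellular transducers tested, 6 were higher and 6 lower in Ts65Dn against euploid, and 8 were higher and 6 lower in the rescue-labelled libraries against Ts65Dn, with medians of -0.15 and 0.09. The 12 and 14 called stand beside 46.7% and 58.1% of all tested genes. Evc, part of the ciliary complex on which SMO acts, gave 0.76 ± 0.12 and the ciliary motor gene Kif7 gave 0.60 ± 0.13 in Ts65Dn. Prkacb, a catalytic subunit of the kinase PKA that holds GLI factors in check, gave -0.73 ± 0.12. In the rescue-labelled libraries against Ts65Dn the kinase gene Csnk1e was higher (1.13 ± 0.10), and Evc2 (-0.76 ± 0.13) and Stk36 (-0.75 ± 0.10) were lower. Of 24 genes of the primary cilium, where the pathway operates, 19 were lower and 2 higher in the latter contrast, with a median of -0.58 against 0.00 over all genes, and 16 were lower and 1 higher in the rescue-labelled libraries against euploid, where 29.2% of all tested genes were called. In Ts65Dn against euploid 12 were higher and 2 lower, with a median of 0.25. Ift80 (-1.03 ± 0.14), Tulp3 (-0.93 ± 0.10) and Tctn2 (-0.90 ± 0.07), genes of transport into the cilium and of its transition zone, were lower in the rescue-labelled libraries than in Ts65Dn. Ift27 (0.65 ± 0.10) and Tctn1 (0.61 ± 0.09) were higher and the motor gene Kif3a (-0.60 ± 0.09) was lower in Ts65Dn than in euploid.

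**Figure D4:**
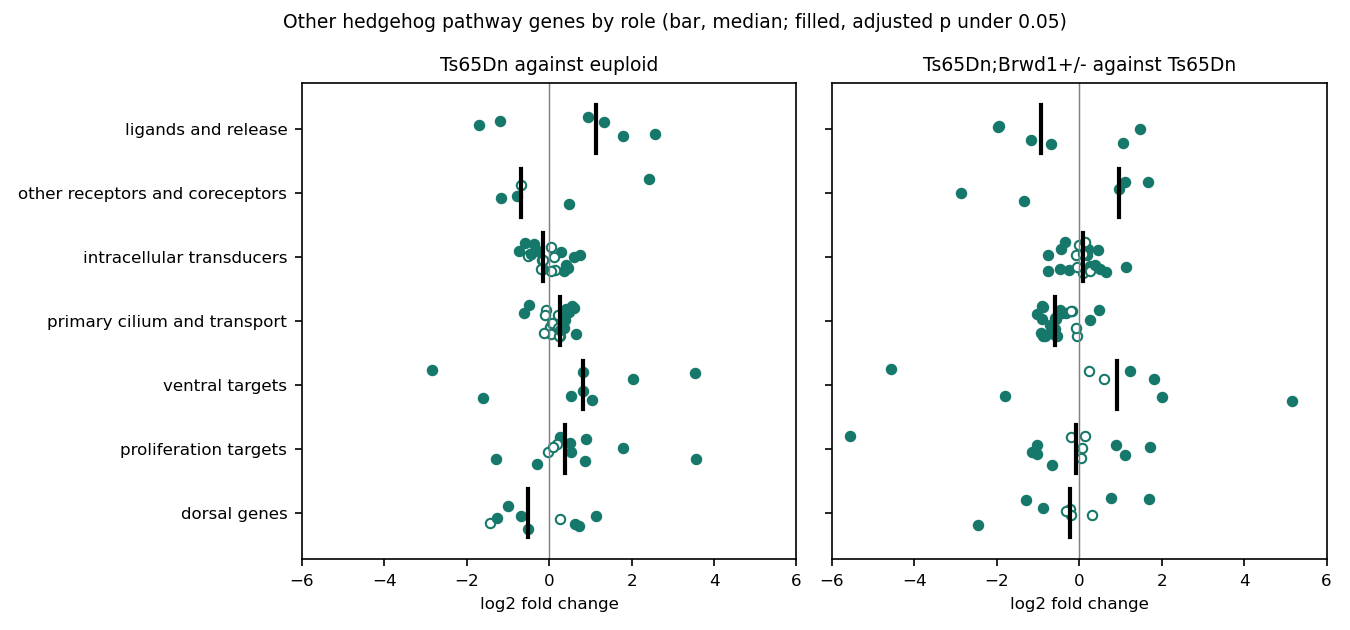
Log2 fold change of the tested pathway genes outside the 9, by role, in Ts65Dn against euploid and in the rescue-labelled libraries against Ts65Dn. Points are genes, filled where the adjusted p was under 0.05, and the bar is the median of the genes drawn. Genes with a genotype at 3 counts or fewer are left out. Of 24 cilium genes, 19 were lower in the second contrast.

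Of 11 ventral target genes tested, which hedgehog signal turns on in the embryo, 8 were higher and 2 lower in Ts65Dn against euploid, and 5 were higher and 4 lower in the rescue-labelled libraries against Ts65Dn, beside 46.7% and 58.1% of all tested genes called in either direction. Olig1 and Olig2, which stand in this list and in the oligodendrocyte lineage list above, lie in the segment that Ts65Dn mice carry in excess. The part of copy number in these counts was not tested. The floor plate genes Foxa1 and Foxa2 and the progenitor gene Nkx6-1 were found mostly in Ts65Dn. Foxa1 and Foxa2 are also part of the floor plate and dopaminergic list above, so that sum is not separate from them. Foxa1 gave 0.307 ± 0.110 CPM (SD) in euploid, 3.64 ± 0.780 CPM in Ts65Dn and 0.138 ± 0.0842 CPM in the rescue-labelled libraries. Foxa2 had 96 counts in Ts65Dn against 1 in euploid (93.1-fold, 95% counting interval 16.3 to 3715), and Nkx6-1 had 95 against 1 (92.1-fold, 16.1 to 3677). Nkx6-1 had 0 counts in the rescue-labelled libraries, which puts Ts65Dn at least 31.6-fold higher, with 3 counts over the group as the floor. Nkx2-1, a gene of the medial ganglionic eminence and of the hypothalamus, was measured at 2.14, 2.50 and 2.73 CPM in euploid, 0.122, 0.346 and 0.574 CPM in Ts65Dn and 11.996, 12.9 and 12.1 CPM in the rescue-labelled libraries. Its log2 fold change was -2.83 ± 0.31 in Ts65Dn against euploid and 5.15 ± 0.27 in the rescue-labelled libraries against Ts65Dn. Lhx8, a gene of the same region, had 43 counts in the rescue-labelled libraries, 0 in Ts65Dn and 3 in euploid. The rescue-labelled libraries were at least 14.4-fold above Ts65Dn and 13.9-fold above euploid (95% counting interval 4.46 to 70.3). Lhx6, a marker of interneurons born in that region, also stands in the interneuron list above. It gave -1.61 ± 0.14 in Ts65Dn against euploid and 2.01 ± 0.14 in the rescue-labelled libraries against Ts65Dn. Hypothalamic genes, a list that holds Nkx2-1 and of which 3 of 12 were tested, summed to 12.8 to 16.1 CPM in euploid, 14.7 to 17.6 CPM in Ts65Dn and 71.7 to 79.1 CPM in the rescue-labelled libraries, with Avp, Oxt and Six6 at 0 in the last 2 genotypes. The part of the interneuron and hypothalamic marker sums in these values was not tested.

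Of 12 proliferation targets, 7 were higher and 2 lower in Ts65Dn than in euploid, and 3 were higher and 5 lower in the rescue-labelled libraries than in Ts65Dn (46.7% and 58.1% of all tested genes were called). The cyclin gene Ccnd1 was higher in Ts65Dn (1.80 ± 0.11, adjusted p = 2.53e-06), whereas Mycn, also a hedgehog target in neural progenitors, was lower (-1.28 ± 0.13, adjusted p = 7.76e-05). Both reversed in the rescue-labelled libraries against Ts65Dn (-1.15 ± 0.11 and 1.71 ± 0.13). Spp1, which encodes the secreted protein osteopontin, gave 3.57 ± 0.26 and -5.56 ± 0.33. Summed cell cycle markers were 274 to 295 CPM in euploid, 379 to 441 CPM in Ts65Dn and 663 to 680 CPM in the rescue-labelled libraries.

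Dorsal genes, on which the pathway acts in the opposite sense in the neural tube, included Pax3 and Pax7. Of 11 dorsal genes tested, 5 were higher and 4 lower in Ts65Dn against euploid, and 2 were higher and 5 lower in the rescue-labelled libraries against Ts65Dn, where 46.7% and 58.1% of all tested genes were called. Pax3 had 1285 counts in Ts65Dn and 0 in each of the other genotypes, at least 415-fold higher than euploid and at least 427-fold higher than the rescue-labelled libraries. Pax7 had 1310 counts in Ts65Dn against 3 in euploid (424-fold, 95% counting interval 145 to 2056). Wnt8b was lower in Ts65Dn than in euploid (-1.26 ± 0.24), and Bmp4 was lower in the rescue-labelled libraries than in Ts65Dn (-2.45 ± 0.18). Pax3 and Pax7 are also known for the dorsal midbrain, and the diencephalon and midbrain marker sum was high in the same 3 Ts65Dn libraries, whose part in these values was not tested.

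Binding of SMARCA2/4 near the hedgehog genes was read from 1 deposited peak list per genotype, made from pooled samples, so that there is no replicate error and no test. The euploid list held 22667 peaks, the Ts65Dn list 1290 and the rescue list 1873. In the euploid list 5 of the 9 genes were named by 10 peaks, where 29.3% of 21951 protein-coding genes were named by at least 1. Ptch1 and Cdon had 3 peaks each, Boc 2, and Smo and Gli1 had 1 each. In the Ts65Dn list 1 of the 9 was named (3.24% of protein-coding genes), and in the rescue list also 1 (3.70%), Ptch1 in both, by 1 peak each. No peak named Shh, Hhip, Gli2 or Gli3.

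The Ts65Dn and rescue peaks at Ptch1 lay at different places, each overlapping a euploid peak. The rescue peak was inside an intron 20.8 kb from the gene start and met the euploid peak chr13:63552689-63552804 (fold enrichment 2.91, q = 0.0489), and the ATAC lists of Ts65Dn and rescue also held a peak there. The q-values of the Ts65Dn and rescue peaks themselves were 0.0903 and 0.277, above 0.05. Over all euploid peaks, 2.67% were overlapped by a Ts65Dn peak and 3.82% by a rescue peak, against 1 of 10 hedgehog peaks in each case. The peak at Gli1, chr10:127339036-127339165, had a fold enrichment of 4.75 (q = 1.07e-05) and lay in an intron 2.9 kb from the start, where the Ts65Dn ATAC list also had a peak.

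The sequences of these regions are given 5′ to 3′ on the strand of the gene, from the GRCm38 reference and with the file coordinates counted from 1, as examples of places where lists of different genotypes or assays coincide. Capitals mark the 30 bases common to the 4 lists with a peak in the Ptch1 intron, the 75 bases shared with the Ts65Dn ATAC peak at Gli1, and, for an ATAC peak of Cdon (chr9:35439201-35439400), a near match to the GLI motif.
Ptch1 intron, euploid SMARCA2/4 peak: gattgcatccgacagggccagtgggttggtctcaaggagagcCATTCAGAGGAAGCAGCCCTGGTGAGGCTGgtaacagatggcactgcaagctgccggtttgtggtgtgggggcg
Gli1 intron, euploid SMARCA2/4 peak: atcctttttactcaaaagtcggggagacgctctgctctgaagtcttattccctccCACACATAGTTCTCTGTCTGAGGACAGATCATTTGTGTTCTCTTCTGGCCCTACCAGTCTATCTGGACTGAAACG
Cdon intron, euploid ATAC peak: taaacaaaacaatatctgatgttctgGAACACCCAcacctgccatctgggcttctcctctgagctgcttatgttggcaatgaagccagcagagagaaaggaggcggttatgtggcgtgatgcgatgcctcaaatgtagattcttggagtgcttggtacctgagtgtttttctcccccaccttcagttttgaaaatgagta

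The GLI motif searched was GACCACCCA, on both strands. It was in no member peak, and with 1 mismatch allowed it was matched in the Cdon intron region alone, once in each of the 3 ATAC lists. In windows of 200 bp at all ATAC peaks, 5.03% to 5.05% held such a near match. Promoters, from 250 bases before to 50 bases after an annotated transcript start, were given by RefSeq (GRCm38.p6) for 6 of the 9 genes. Those of Cdon, Ptch1 and Gli3 lay inside the gene and not at the gene start given above, so that start was not searched for these 3 genes. None of the 6 held the motif exactly or with 1 mismatch, against 0.253% and 6.74% of 32851 promoters. A match describes letters and not a bound site.

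Open chromatin in adult neurons differed in the length of the lists, with 15521 peaks for euploid, 29195 for Ts65Dn and 30244 for rescue. In the euploid list 2 of the 9 genes were named, where 41.1% of protein-coding genes were. In the Ts65Dn list 6 of the 9 were named (51.9%) and in the rescue list 5 of the 9 (51.8%). Gli2 had 2, 4 and 5 peaks and Cdon 3, 4 and 3 in the order euploid, Ts65Dn, rescue. Ptch1 and Gli3 had 1 peak in the Ts65Dn and 1 in the rescue list, Boc had 2 and 3, and Gli1 had 1 in the Ts65Dn list. Among the genes with no peak named after them, Smo lay within 10 kb of 2 peaks in each list that carry the names of Ahcyl2 and Gm13717. By position, each list, euploid included, also held 1 peak in or within 10 kb of Ptch1 under the name of A930032L01Rik. The Ts65Dn and rescue lists each held 1 at Boc named after Mir3081. Further peaks without the member's name were 1 each at Shh and Gli2 in the Ts65Dn list, which name no gene. In the rescue list 1 at Cdon carried the name of Gm1113. Hhip had no peak within 10 kb in any list.

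All 5 hedgehog peaks of the euploid ATAC list were overlapped in the Ts65Dn list and in the rescue list, where 96.7% and 96.2% of all euploid peaks were. In the other direction, 5 of 13 Ts65Dn peaks met a euploid peak (49.9% of all Ts65Dn peaks) and 5 of 13 rescue peaks did (47.9%). Between the longer lists, 11 of 13 were overlapped each way (81.0% of all Ts65Dn and 78.2% of all rescue peaks). The Cdon promoter peak had a fold enrichment of 3.89 in euploid, 5.29 in Ts65Dn and 4.42 in rescue, and a peak 3.7 to 3.8 kb into the gene had 3.22, 4.36 and 3.57. The Cdon peak whose sequence is printed above had 4.19, 4.24 and 4.91, with the rescue list highest. The Ts65Dn and rescue ATAC peaks 3.7 to 3.8 kb into the gene met all 3 euploid SMARCA2/4 peaks of Cdon, and the euploid ATAC peak met 2 of them. The Gli2 promoter peak was in the Ts65Dn (4.21) and rescue (3.31) lists. At Boc, the peak at the gene start in Ts65Dn (3.37) and rescue (2.79) overlapped a euploid SMARCA2/4 peak (4.72). These values have no replicate error, and the length of a list and its genotype cannot be told apart.

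**Figure D5:**
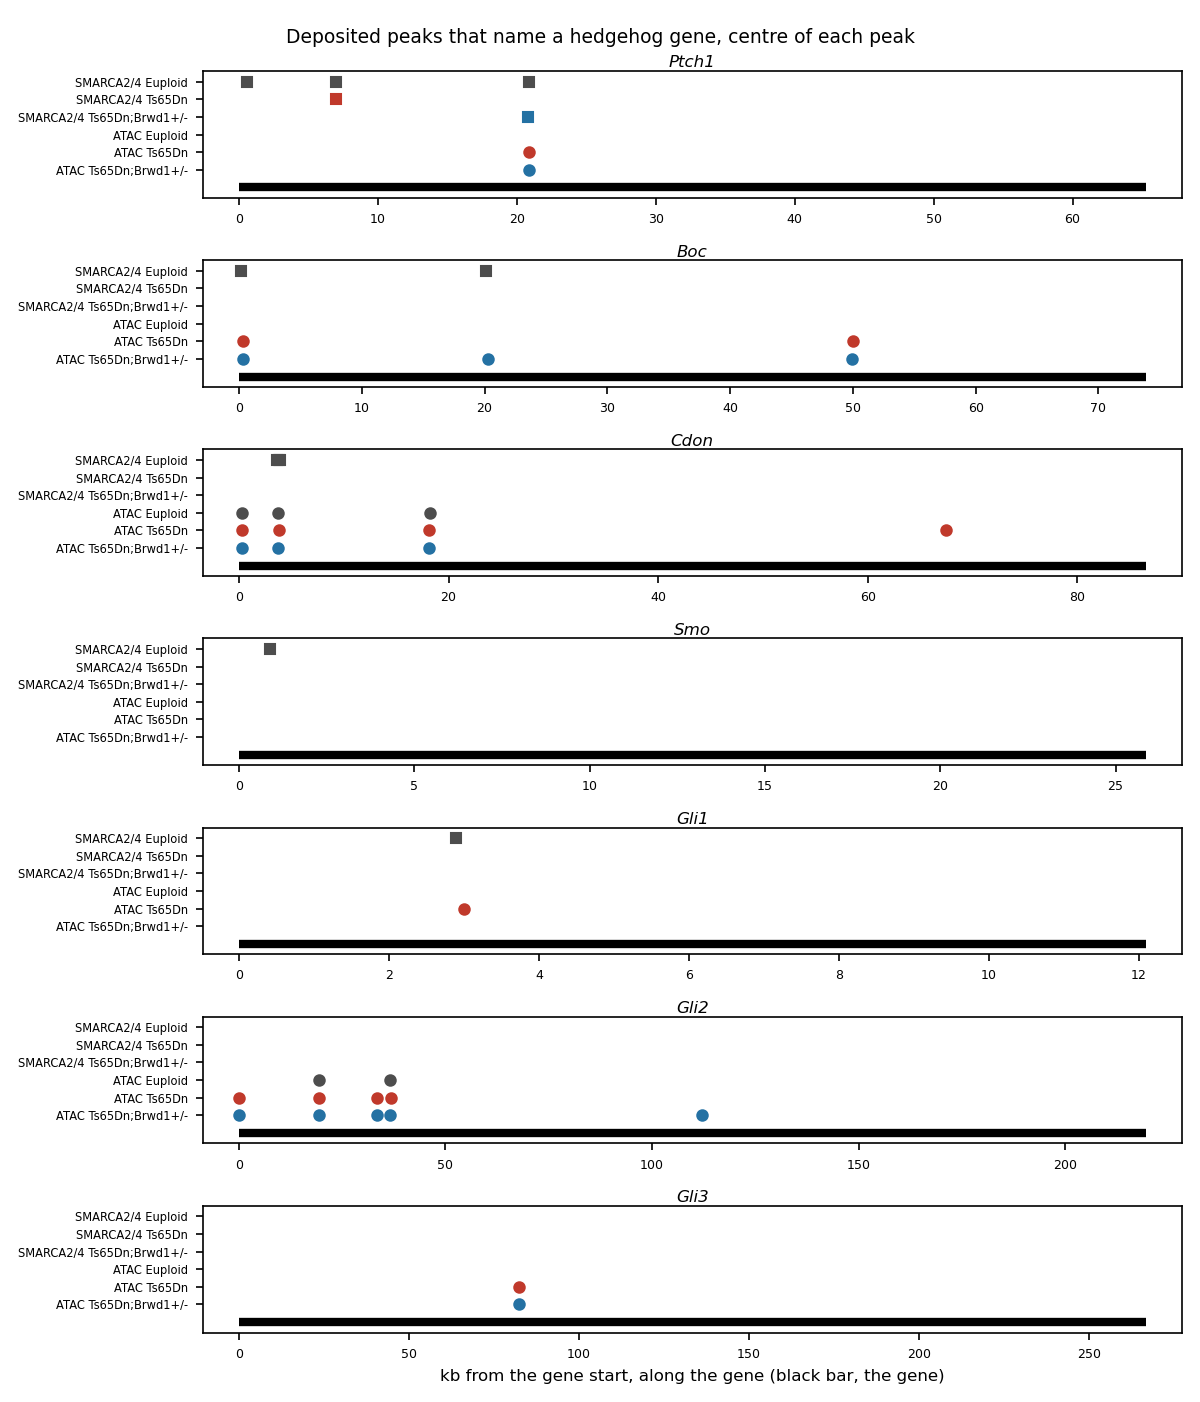
Centres of the deposited peaks that name a hedgehog gene, by distance from the gene start in kb (horizontal axis), with a row per list and a black bar for the gene. Squares are SMARCA2/4 peaks and circles ATAC peaks. Of the 12 SMARCA2/4 peaks, 10 are in the euploid list, and the longer ATAC lists hold 13 peaks each against 5 in the euploid list.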

How the data were processed

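The authors deposited counts per gene for each culture library (reads mapped to mm10 with HISAT2 and counted with featureCounts on Ensembl genes according to the study's methods, although the files end with lines of totals as another counter writes them, 37.4% to 40.0% of each total, which were left out). They also deposited 1 annotated peak list per genotype and assay with a fold enrichment (a ratio) and a q-value for each peak, called on pooled samples. The 9 genes and all lists were chosen with earlier results of these data known. The named pathway genes are the 3 called genes of each role list with the largest absolute change in each contrast with Ts65Dn, plus, for each of the 9, the 3 genes closest in pattern, with Brwd1 and Xist as label checks. One gene that this rule names and one peak region are not reported here. Lhx6 and the genes named for overlap were chosen after their values were seen.

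Counts were fitted with edgeR 4.0.16 (R 4.3.3) by the quasi-likelihood test, with TMM scaling, filterByExpr and genotype as the only term, and p-values were adjusted by Benjamini-Hochberg. CPM used the TMM-scaled totals. DESeq2 1.42.0, other scalings, filters, sample sets, a replicate block and 1 factor of unwanted variation were alternatives. The fit was tested on simulated data. Replicate libraries carry no note of separate cultures, so p-values may measure technical spread. Deviations from the genotype mean correlated weakly between euploid and Ts65Dn libraries of the same number (r = 0.129, 0.206 and 0.263). No label gives such pairs, and the main fit did not pair libraries. Blocking on the numbers changed no call of the 9 genes in Ts65Dn against euploid. The numbers did not pair the rescue-labelled libraries. Peak positions matched GENCODE M21 (GRCm38) for 95.1% of named transcripts, and regions were annotated from it. Counting intervals cover counting error only.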

Additional observations from a re-analysis of the deposited data

How the results depend on the processing

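The 9 hedgehog genes were refitted under 19 alternatives in each contrast: 3 other scalings, DESeq2, 2 other filters, a replicate block, the genotypes compared alone, 1 factor of unwanted variation, a threshold of 0.1, and each library left out in turn. In Ts65Dn against euploid 168 of 171 values kept direction and call, and the other 3 were losses of Ptch1, including upper-quartile scaling (-0.30, adjusted p = 0.0504). In the rescue-labelled libraries against Ts65Dn 164 did, and 7 alternatives gained Gli2. Against euploid 155 did, with 5 losses (Gli3 in 4, among them library totals at an adjusted p of 0.0634, and Cdon in 1), 5 gains (Shh in 4, Gli2 in 1) and 6 changes of sign. These last were all Gli1, whose value was 0.00 and became 0.00 with upper-quartile scaling, 0.04 with library totals, 0.01 with at least 10 counts in every library, 0.00 with the replicate block, 0.10 without euploid replicate 2 and 0.04 without rescue-labelled replicate 1. With a library left out it ranged from -0.09 to 0.10. The cause was not tested. The number of the 9 genes called ranged over 6 to 7, 6 to 7 and 2 to 4 with a library left out. Over all tested genes the number called ranged over 6667 to 7894, 8526 to 10164 and 3707 to 5761.

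With the replicate block 7, 7 and 4 of the 9 genes were called in the 3 contrasts, beside 8349, 10268 and 5397 of all 17173 tested genes. The block gained Gli2 in both contrasts with the rescue-labelled libraries, where the numbers did not pair the samples (adjusted p = 0.00881 against Ts65Dn and 0.0423 against euploid), and it changed no other call of the 9.

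SMARCA2/4 peaks at the 9 genes went from 10 to 6 in the euploid list at q under 0.001, and from 1 to 0 in the Ts65Dn list and in the rescue list, both there and at q under 0.05 with fold enrichment over 1.2. At q under 0.001 the whole lists went from 22667 to 7570, from 1290 to 181 and from 1873 to 487 peaks. At the other setting the Ts65Dn and rescue lists held 410 and 1090. The single peak shared by euploid and Ts65Dn became 0 in either direction when 50% of each peak had to overlap. Counting ATAC peaks by position within 10 kb raised the euploid number from 5 to 8. The depth behind each peak is unknown.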
